A study of Mus musculus with 17 samples.

Results

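The colony-stimulating factors and their receptors are a small family of cytokine genes, and 6 of them were followed here in RNA from mouse cortical microvessels. The 6 genes are the ligands Csf1 and Il34, their shared receptor Csf1r, the granulocyte colony-stimulating factor (G-CSF) receptor Csf3r, and the 2 chains of the granulocyte-macrophage colony-stimulating factor (GM-CSF) receptor, Csf2ra and Csf2rb. They were taken by symbol from the Ensembl IDs of a table of raw counts for 42687 genes, and all 6 passed the filter on low counts that left 18753 genes for testing. The RNA came from 17 libraries of microvessels pelleted through dextran from the cortex on the side of a surgery that the labels do not describe. The mice were 10 to 11 months old and were wild type (WT) or APP/PS1, a transgenic amyloid model of Alzheimer's disease whose genotype the labels write as APP and whose transgene promoter they do not name. All mice, controls included, received a peptide at 10 mg/kg into the peritoneum at intervals of 2 days for 2 weeks. Inhibitor groups were given gp91-ds-tat, which blocks the NADPH oxidase NOX2, and control groups sgp91-ds-tat. The groups were WT with control peptide (5 libraries), WT with inhibitor (5), APP/PS1 with control peptide (2) and APP/PS1 with inhibitor (5), where the label NOX2 was read as inhibitor and the label SC as control peptide. The labels do not say whether each library is a separate animal. The p-values therefore judge differences against the spread between libraries, which may in part be technical.

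As background, CSF-1 and IL-34 are ligands of the same tyrosine kinase receptor, CSF1R, on which the survival of microglia and many tissue macrophages depends. In brain, IL-34 comes mostly from neurons, while CSF-1 is made by several cell types, glia and vascular cells among them. G-CSF acts through CSF3R, a receptor best known from neutrophils and their precursors. GM-CSF acts through its own alpha chain, CSF2RA, paired with the common beta chain, CSF2RB, which also serves the receptors of IL-3 and IL-5.

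Libraries held 7316503 to 17862965 counts (median 11342154). The labels give the cells as endothelial cells, pericytes and astrocyte endfeet, and markers of all 3 were detected. Summed levels were 2045 to 3740 CPM (counts divided by the TMM-scaled library size in M, mega) for 8 endothelial markers, 1051 to 1813 CPM for 7 mural markers and 3024 to 5198 CPM for 7 astrocyte markers. RNA of other brain cells was present too, since 8 neuron markers summed to between 3050 and 4943 CPM and 5 choroid plexus markers to between 26.1 and 8048 CPM. No endothelial, neuron or choroid plexus marker was called by genotype in the test described below, where 0.587% of all genes were called over both peptides. All 5 choroid plexus markers had values lower in APP/PS1, with a median log2 difference of -0.56 over both peptides, -1.38 with control peptide and -0.10 with inhibitor, and their part in the results was not tested. The 10 microglia markers, all detected, summed to between 196 and 262 CPM in WT and between 250 and 403 CPM in APP/PS1.

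RefSeq promoters of 300 bases (250 before the start site and 50 from it on, assembly GRCm38.p6) are shown for 3 members, each read 5′ to 3′ on the gene's own strand. Csf3r is shown because it differed most between the genotypes, and Csf2ra and Csf1 because they had an entry and no called difference. No sequence of Csf1r was printed. The region of Csf3r is chr4:126024409-126024708 on the plus strand, that of Csf2ra chr19:61228369-61228668 on the minus strand and that of Csf1 chr3:107760420-107760719 on the minus strand. In all 3, the bases from the start site on were found near the beginning of a transcript of GENCODE vM21. Capitals mark GAGGAA, the core letters of sites for PU.1, the myeloid transcription factor encoded by Spi1.
Csf3r: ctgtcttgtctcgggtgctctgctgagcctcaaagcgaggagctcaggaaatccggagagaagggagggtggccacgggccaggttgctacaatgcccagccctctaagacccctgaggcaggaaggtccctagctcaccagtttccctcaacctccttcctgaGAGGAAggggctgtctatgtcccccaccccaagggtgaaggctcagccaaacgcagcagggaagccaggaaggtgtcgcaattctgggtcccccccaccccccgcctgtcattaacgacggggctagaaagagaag
Csf2ra: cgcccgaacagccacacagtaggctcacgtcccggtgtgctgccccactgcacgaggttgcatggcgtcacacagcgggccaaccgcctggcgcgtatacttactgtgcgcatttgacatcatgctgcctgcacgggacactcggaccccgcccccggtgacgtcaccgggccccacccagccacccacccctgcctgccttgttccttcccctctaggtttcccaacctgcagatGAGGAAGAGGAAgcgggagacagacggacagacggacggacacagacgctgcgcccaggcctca
Csf1: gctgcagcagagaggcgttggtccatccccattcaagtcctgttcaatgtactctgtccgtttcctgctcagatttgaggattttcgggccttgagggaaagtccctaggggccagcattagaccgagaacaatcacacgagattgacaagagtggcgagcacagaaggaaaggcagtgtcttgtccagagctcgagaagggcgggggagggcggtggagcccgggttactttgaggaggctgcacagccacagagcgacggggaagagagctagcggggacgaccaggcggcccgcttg
GAGGAA was searched on both strands. It was found 1 time in the Csf3r window, starting 86 bases before the start site. In Csf2ra it was found 2 times in a row, starting 14 and 8 bases before the start site, and in Csf1 it was found 0 times. Of 32851 promoters of the same length, 28.3% held GAGGAA. The RUNX core TGTGGT was in none of the 3 windows, against 16.8% of all promoters. The C/EBP core TTNCNNAA was in the Csf2ra window, starting 31 bases before the start site, against 40.7% of all promoters. Positions are counted from the RefSeq start site. The GENCODE bounds of Csf3r and Csf2ra, given below, begin before that site, so their GAGGAA matches lie wholly or partly within those bounds. A match in these letters describes the sequence and is no evidence of a bound factor.

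**Figure D1:**
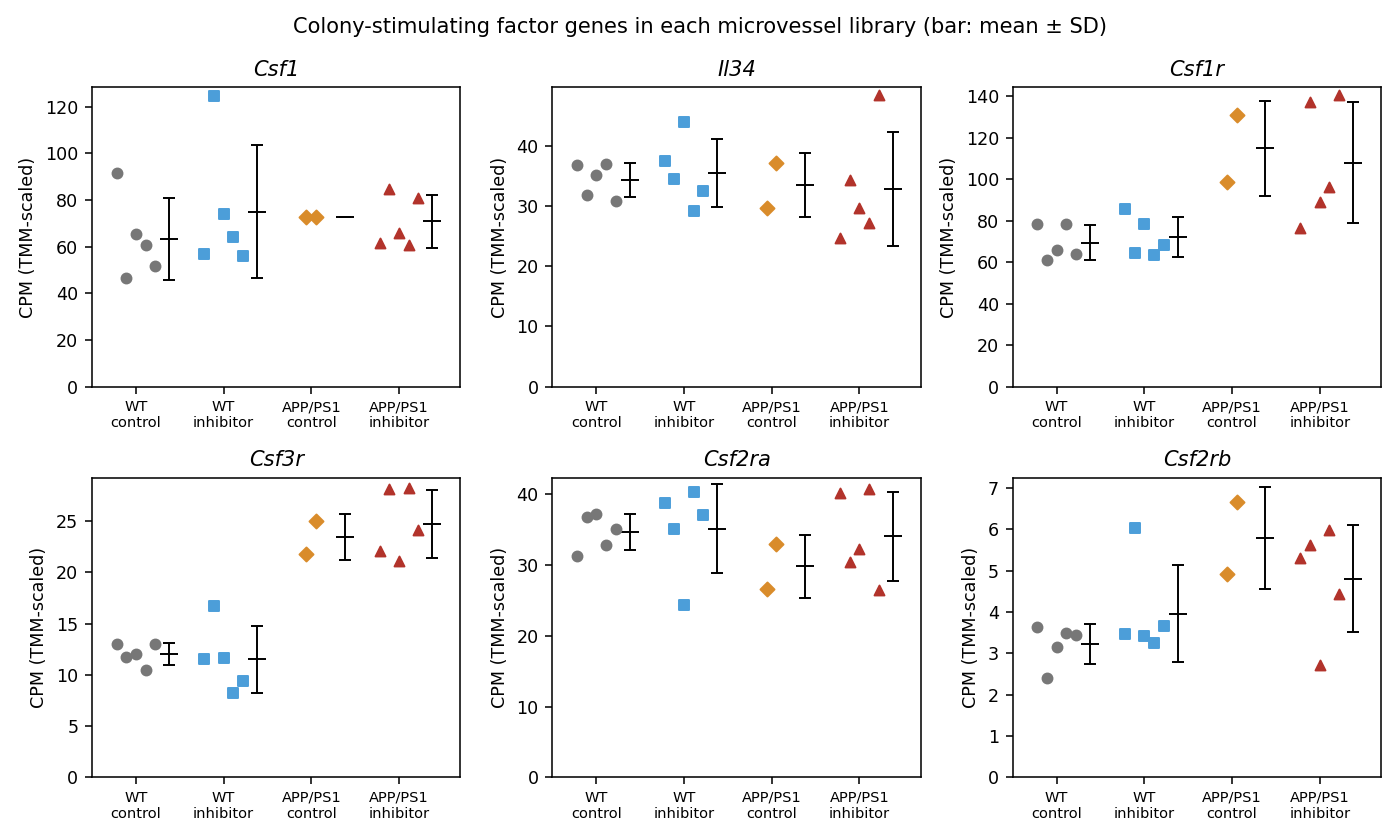
Level of each member in CPM (vertical axes, from 0) in the 17 libraries of the 4 groups (horizontal axis). Points are libraries and the bars beside them are the mean and SD. For Csf3r all 7 APP/PS1 libraries lie above all 10 WT libraries, and for Csf1r 6 of 7 do.

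Csf1 and Il34, the 2 ligands of CSF1R, had no called difference between WT and APP/PS1 libraries. Csf1 (ENSMUSG00000014599, chr3:107741048-107760469, minus strand) was at 91.7, 46.6, 65.3, 60.7 and 51.9 CPM in WT with control peptide and at 56.9, 124, 73.8, 63.9 and 55.8 CPM in WT with inhibitor. It was at 72.6 and 72.8 CPM in APP/PS1 with control peptide and at 61.7, 84.8, 65.9, 60.8 and 80.8 CPM in APP/PS1 with inhibitor. The highest values were both in WT, in replicate 2 with inhibitor and replicate 1 with control peptide, and the WT range enclosed the APP/PS1 range. The genotype difference over both peptides was 0.02 ± 0.16 on the log2 scale (SE; edgeR quasi-likelihood test, Benjamini-Hochberg adjusted p = 0.999), with a 95% interval in fold of 0.804 to 1.28.

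Il34 (ENSMUSG00000031750, chr8:110741829-110805924, minus strand) was at 36.9, 31.8, 35.2, 37.1 and 30.9 CPM in WT with control peptide and at 37.5, 34.5, 44.0, 29.2 and 32.5 CPM in WT with inhibitor. In APP/PS1 it was at 29.7 and 37.3 CPM with control peptide and at 24.7, 34.3, 29.7, 27.1 and 48.5 CPM with inhibitor. The groups overlapped, and both the lowest and the highest library were in APP/PS1 with inhibitor. The genotype difference was -0.09 ± 0.12 on the log2 scale (edgeR adjusted p = 0.987), with a 95% interval in fold of 0.792 to 1.12. The pair of ligands was also compared within each library, which removes library scaling. The log2 CPM of Csf1 minus that of Il34 averaged 1.13 ± 0.21 (SD, n = 7) in APP/PS1 and 0.93 ± 0.40 (SD, n = 10) in WT. This difference of 0.20 was within the spread between libraries (exact permutation of the 19448 splits, two-sided, p = 0.248, adjusted p = 0.331 over the 4 within-library ratios). It passed only without WT replicate 2 with inhibitor, at 0.30 and an exact permutation adjusted p of 0.0332.

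Csf1r (ENSMUSG00000024621, chromosome 18, plus strand), the receptor of both ligands, was higher in APP/PS1 libraries. It was at 78.2, 61.2, 65.7, 78.4 and 63.9 CPM in WT with control peptide and at 85.6, 64.4, 78.6, 63.3 and 68.5 CPM in WT with inhibitor. In APP/PS1 it was at 98.7 and 131 CPM with control peptide and at 76.4, 137, 89.1, 96.2 and 140 CPM with inhibitor. Of the 7 APP/PS1 libraries, 6 lay above every WT library, and the ranges overlapped through replicate 1 with inhibitor at 76.4 CPM. The APP/PS1 mean was 110 CPM ± 25.8 (SD, n = 7), against 70.8 CPM ± 8.58 (SD, n = 10) for WT. Over both peptides Csf1r rose by 0.63 ± 0.12 on the log2 scale, a 1.55-fold difference with a 95% interval of 1.31 to 1.84 (edgeR adjusted p = 0.00933). Without APP/PS1 replicate 2 with control peptide the log2 difference was 0.56 and no longer passed (edgeR adjusted p = 0.0719).

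Csf3r (ENSMUSG00000028859, chr4:126024550-126044440, plus strand), the G-CSF receptor, differed most among the 6. It was at 13.02, 11.73, 11.99, 10.45 and 12.97 CPM in WT with control peptide and at 11.5, 16.7, 11.7, 8.19 and 9.40 CPM in WT with inhibitor. In APP/PS1 it was at 21.8 and 25.0 CPM with control peptide and at 22.1, 28.1, 21.1, 28.2 and 24.2 CPM with inhibitor. No APP/PS1 library overlapped with a WT library, the lowest of the former being at 21.1 CPM and the highest of the latter at 16.7 CPM. Of all genes tested, 0.272% had ranges that lay apart by genotype in this way, and 0.267% with APP/PS1 higher. Over both peptides Csf3r rose by 1.04 ± 0.12 on the log2 scale, a 2.06-fold difference with a 95% interval of 1.74 to 2.44 (edgeR adjusted p = 4.27e-05). It passed in each of the 17 fits that left out 1 library, with log2 differences between 0.98 and 1.15.

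The 2 chains of the GM-CSF receptor differed from each other in level and showed no called difference by genotype. Csf2ra (ENSMUSG00000059326, chr19:61223957-61228429, minus strand), the ligand-specific alpha chain, was at 31.4 to 37.3 CPM (median 35.1) in WT with control peptide and at 24.4 to 40.4 CPM (median 37.1) in WT with inhibitor. In APP/PS1 it was at 26.7 and 32.9 CPM with control peptide and at 26.6 to 40.8 CPM (median 32.4) with inhibitor. The genotype difference was -0.11 ± 0.11 on the log2 scale (edgeR adjusted p = 0.968), with a 95% interval in fold of 0.794 to 1.09.

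Csf2rb (ENSMUSG00000071713, chr15:78325752-78353847, plus strand), the common beta chain, rested on 23 to 93 counts per library. It was at 3.64, 2.41, 3.15, 3.48 and 3.45 CPM in WT with control peptide and at 3.46, 6.03, 3.41, 3.25 and 3.65 CPM in WT with inhibitor. In APP/PS1 it was at 4.91 and 6.65 CPM with control peptide and at 5.31, 5.61, 2.71, 5.99 and 4.43 CPM with inhibitor. Of the 7 APP/PS1 libraries, 6 lay above the WT median, but replicate 3 with inhibitor was low and WT replicate 2 with inhibitor was high, so the groups overlapped. The log2 difference was 0.48 ± 0.17, with an unadjusted p of 0.0126 and an edgeR adjusted p of 0.523. The neighbouring Csf2rb2, a near-identical copy that encodes a beta chain used by IL-3 in mice, was at 1.496 to 4.67 CPM and differed by 0.17 ± 0.21 on the log2 scale (edgeR adjusted p = 0.980). Reads can be shared between these copies, and how the authors' counting treated them is not given in the sources used here, so both values are uncertain.

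In all, 2 of the 6 members were called by genotype over both peptides, both higher in APP/PS1, where 0.587% of all 18753 genes were called and 0.56% were called higher. The median log2 difference of the 6 was 0.25, against 0.00 over all genes tested. With control peptide alone, where APP/PS1 has 2 libraries, 0 members were called and 0.0533% of all genes were. There Csf3r differed by 0.96 (edgeR adjusted p = 0.0859), Csf2rb by 0.82 (0.841) and Csf1r by 0.72 (0.451) on the log2 scale. An unadjusted p under 0.05 was reached by 3 members, and by 745 of all 18753 genes. Csf3r passed in this comparison by DESeq2 (log2 difference 0.95, adjusted p = 0.00688) and by edgeR without WT replicate 2 with inhibitor (0.96, adjusted p = 0.0153). With inhibitor, 1 member was called, Csf3r, at 1.09 ± 0.15 (edgeR adjusted p = 0.00186), where 0.181% of all genes were called and 0.176% were called higher. Csf1r differed by 0.58 ± 0.15 there (edgeR adjusted p = 0.320). The 2 genotype comparisons use different libraries, and their difference is the interaction given below.

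**Figure D2:**
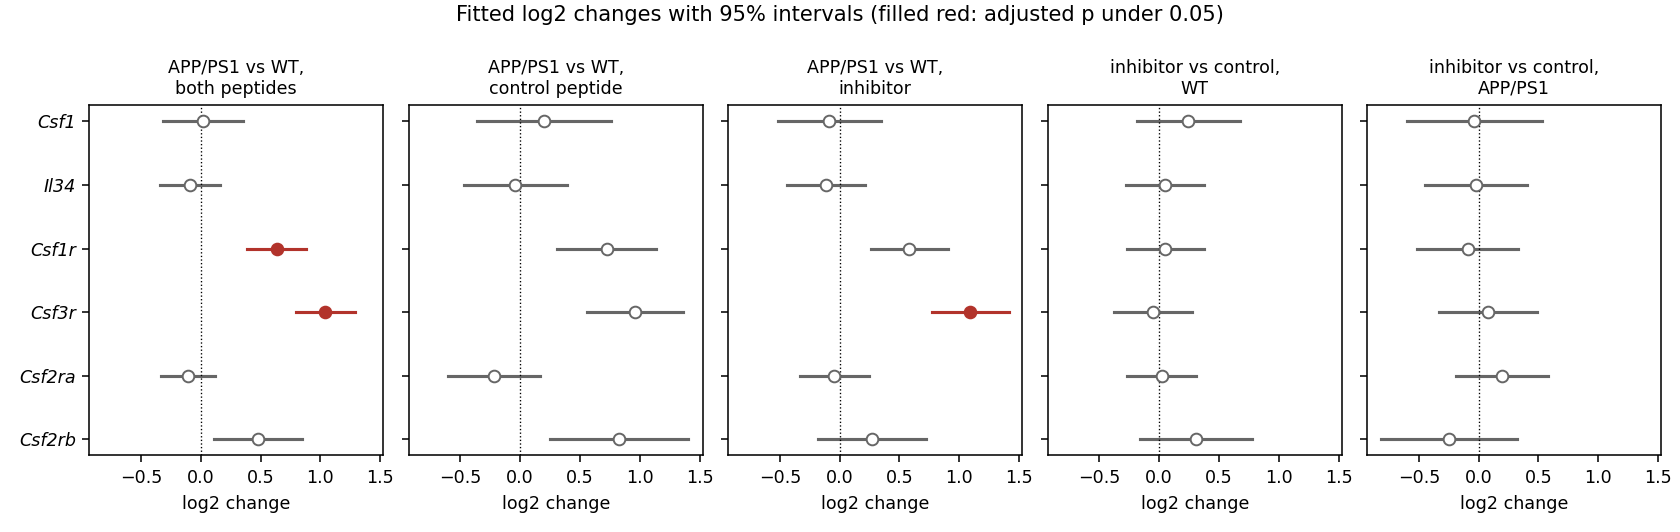
Fitted log2 change of each member (horizontal axes, with 95% intervals) in 5 comparisons (panels). Filled red points passed at an adjusted p under 0.05: Csf1r and Csf3r by genotype over both peptides, and Csf3r by genotype with inhibitor. All intervals of the 2 peptide comparisons cross 0.

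The inhibitor was not followed by a called difference in any member. By edgeR's test, 0 of 6 members were called in WT, in APP/PS1 or over both genotypes, as were 0% of all genes, and 0 of 6 had an unadjusted p under 0.05. In WT, Csf1 differed by 0.24 ± 0.20 and Csf2rb by 0.31 ± 0.22 on the log2 scale, inhibitor minus control. For Csf1 this value was 0.42 without WT replicate 1 with control peptide and -0.02 without WT replicate 2 with inhibitor. In APP/PS1, Csf2rb differed by -0.25 ± 0.27 and Csf2ra by 0.19 ± 0.18. Csf1r and Csf3r, the members that differed by genotype, differed by -0.09 ± 0.20 and 0.08 ± 0.20 with inhibitor in APP/PS1, with 95% intervals in fold of 0.701 to 1.26 and 0.795 to 1.40. These intervals do not show that the levels were alike. The interaction, which is the inhibitor difference in APP/PS1 minus that in WT, was called for 0 of 6 members and for 0% of all genes. Its widest member value was that of Csf2rb, at -0.55 ± 0.35 (edgeR adjusted p = 1.000). At an unadjusted p under 0.05 there were 396 genes over both genotypes, 252 in WT, 338 in APP/PS1 and 158 for the interaction, of the 18753. DESeq2 also called 0 members in each of these 4 comparisons.

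Levels were compared between genes as CPM per kilobase of exon. In WT the order was Il34 at 17.8 ± 2.16 CPM per kb, Csf1 at 13.1 ± 4.38, Csf1r at 12.3 ± 1.49, Csf2ra at 12.2 ± 1.59, Csf3r at 3.26 ± 0.639 and Csf2rb at 0.494 ± 0.127 (mean ± SD, n = 10). In APP/PS1 it was Csf1r at 19.0 ± 4.47 CPM per kb, Il34 at 16.9 ± 4.09, Csf1 at 13.5 ± 1.74, Csf2ra at 11.4 ± 2.02, Csf3r at 6.75 ± 0.814 and Csf2rb at 0.699 ± 0.175 (n = 7). The receptor Csf1r thus stood below its ligand Il34 in 10 of 10 WT libraries, and above it in 6 of 7 APP/PS1 libraries. Csf1r was above Csf1 in 5 of 10 WT libraries and in 7 of 7 APP/PS1 libraries. Il34 was above Csf1 in 9 of 10 WT libraries and in 7 of 7 APP/PS1 libraries. In WT, Csf1, Csf1r and Csf2ra did not differ beyond their spread, and neither order of Csf1 and Csf2ra held in every APP/PS1 library, Csf1 being higher in 5 of 7. In both genotypes Csf2ra was above Csf3r and Csf3r above Csf2rb in every library.

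**Figure D3:**
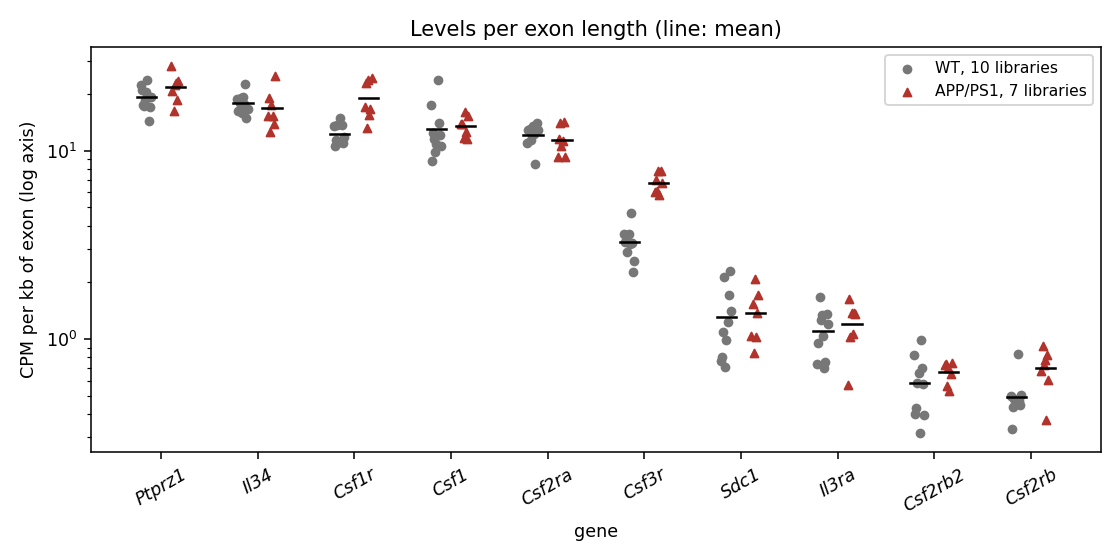
Level per exon length in CPM per kb (vertical log axis) of the 6 members and 4 related genes (horizontal axis), ordered by the mean over 17 libraries. Points are libraries, by genotype, and lines are means. The mean of Csf3r is 3.26 in WT and 6.75 in APP/PS1, that of Csf1r 12.3 and 19.0, and that of Csf2rb, which was not called, 0.494 and 0.699.

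The ligands of the other receptors were at or near 0. Csf3, which encodes G-CSF, and Csf2, which encodes GM-CSF, each had 1 count in 1 library of WT with inhibitor and 0 counts elsewhere. Il3 had 0 counts in all 17 libraries, and a count of 0 allows up to 3 counts, or 0.174 to 0.390 CPM by library. Il5 had at most 3 counts, and Il5ra, the IL-5 receptor alpha chain, at most 2. The IL-3 receptor alpha chain Il3ra was at 1.70 to 4.98 CPM. Of the other receptors reported for IL-34, the phosphatase receptor Ptprz1 was at 19.1 ± 2.80 CPM per kb in WT and 21.7 ± 3.81 in APP/PS1, and the proteoglycan Sdc1 was at 2.72 to 8.71 CPM. Of these 9 related genes, 4 passed the filter on low counts. By genotype over both peptides 0 were called, against 0.587% of all genes.

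A list of 37 genes, of CSF signalling and of the transcription factors that drive receptor expression, was also tested. Of these, 5 rose by genotype over both peptides while 0 fell. Over all genes tested 0.56% rose. The list's median log2 difference was 0.10, against 0.00 for all genes. The 10 microglia markers had a median of 0.69, and the part of microglia content in the 5 differences was not tested. The 5 were Runx1 (0.95, edgeR adjusted p = 5.11e-04) and Irf8 (0.96, 8.58e-04), transcription factors of myeloid cells, Tyrobp (1.22, 0.00161), the signalling adaptor DAP12, Syk (0.44, 0.0282), the kinase that DAP12 recruits, and Inpp5d (0.41, 0.0401), the inositol phosphatase SHIP1. Runx1 was at 4.42 to 8.45 CPM in WT and 9.23 to 13.3 CPM in APP/PS1, so that the genotypes did not overlap. Of all genes tested, 0.272% lay apart in this way, and 0.267% with APP/PS1 higher. How many of the 37 listed genes lay apart was not counted. Irf8 was at 5.71 to 10.9 CPM in WT and 10.6 to 19.2 CPM in APP/PS1, and Tyrobp at 2.20 to 6.55 CPM and 6.51 to 13.9 CPM, each with a slight overlap. With inhibitor, Runx1 (1.01, edgeR adjusted p = 0.0119) and Irf8 (0.95, 0.0401) passed. With control peptide 0 of 37 passed, and the smallest p-values were those of Tyrobp (1.54, edgeR adjusted p = 0.0830), Irf8 (0.98, 0.201) and Runx1 (0.84, 0.301). The inhibitor and the interaction had 0 of 37 called. The smallest p-values there were those of Spi1, Stat5b and Pik3cg in WT, at 0.55, 0.20 and -0.22 on the log2 scale, and of Pik3cd, Stat5a and Pik3r1 in APP/PS1, at 0.17, -0.30 and -0.13. Over both genotypes they were those of Stat5b, Pik3cg and Cebpa, at 0.15, -0.18 and 0.17, and for the interaction they included those of Spi1 and Tyrobp, at -0.73 and -0.52.

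Markers of microglia were examined beside Csf1r and Csf3r. Of 10 microglia markers, 5 rose by genotype over both peptides and 0 fell, with a median log2 difference of 0.69 and a range of 0.29 to 1.02. Of 14 genes of plaque-associated microglia, 7 rose and 0 fell. Both counts stand beside 0.56% of all genes called higher. Of 7 perivascular macrophage markers 0 were called (median 0.02), and of 5 monocyte markers 4 could be tested and 0 were called (median -0.08). In bulk RNA, a change in the number of cells of a type and a change in RNA per cell cannot be told apart. The part of microglia content in the genotype differences of Csf1r and Csf3r was therefore described in 2 ways, within libraries and as a covariate. Within libraries, the log2 CPM of Csf1r minus the mean log2 CPM of the 10 microglia markers was 1.97 ± 0.10 (SD, n = 7) in APP/PS1 and 1.98 ± 0.17 (SD, n = 10) in WT. The difference was -0.01 (exact permutation p = 0.912). For Csf3r this quantity was -0.17 ± 0.21 in APP/PS1 and -0.61 ± 0.29 in WT, a difference of 0.44 (exact permutation p = 0.00452, adjusted p = 0.00905 over the 4 ratios). All 7 APP/PS1 libraries lay above the WT median of this ratio and 3 lay above all WT libraries. The ratio is set against the mean of markers that themselves differed by 0.29 to 1.02, and Csf3r differed by 1.04. A marker at the top of that range would also stand above the mean. Whether Csf3r rose beyond microglia content was therefore not tested by this ratio. Csf1 stood lower against the microglia markers in APP/PS1, by -0.52 (exact permutation p = 0.00386, adjusted p = 0.00905), with 7 of 7 APP/PS1 libraries below the WT median. The ratio holds both terms. Csf1 itself differed by 0.02 and was not called, and the microglia markers differed by a median of 0.69. The ratio is therefore no separate result about Csf1.

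With the microglia score as a covariate in the fit, no member was called by genotype. The log2 difference over both peptides became -0.03 for Csf1r (edgeR adjusted p = 0.949) and 0.80 for Csf3r (0.237). That covariate is itself higher in APP/PS1, and 2 genes of all tested were called with it, against 110 without it.

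**Figure D4:**
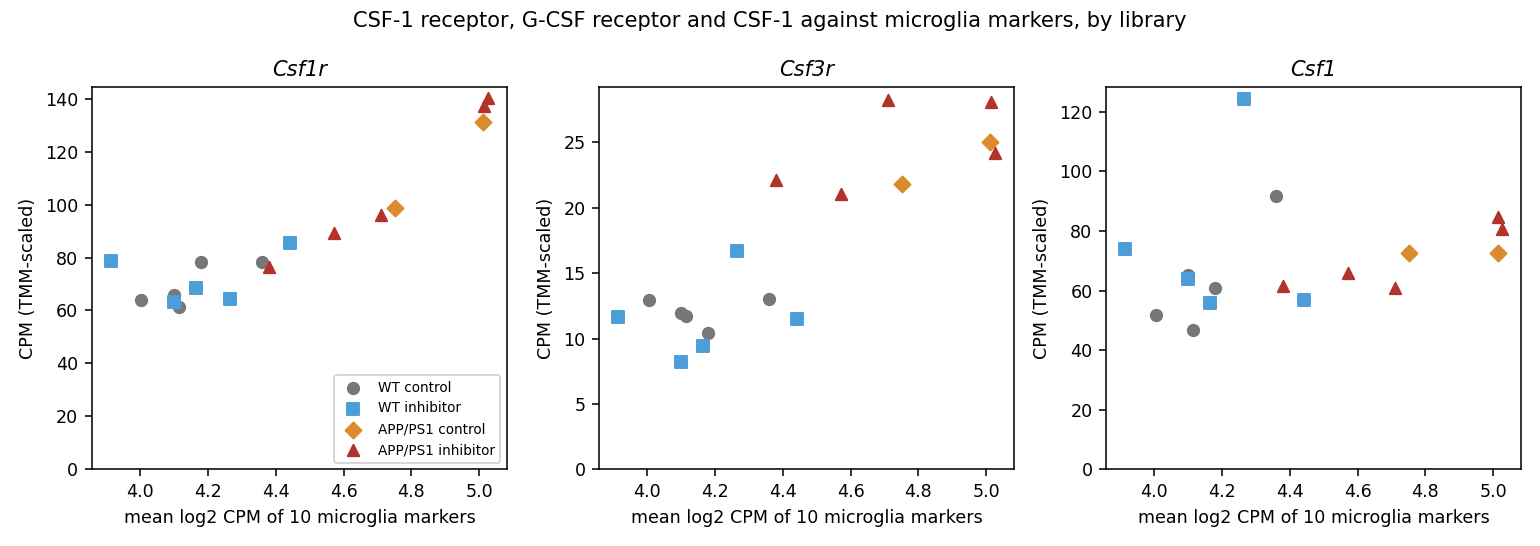
Level of Csf1r, Csf3r and Csf1 in CPM (vertical axes, from 0) against the mean log2 CPM of 10 microglia markers (horizontal axes, which do not start at 0) in 17 libraries. Csf1r follows the markers across both genotypes, the APP/PS1 points of Csf3r all lie at 21.1 CPM or more, and the 2 highest Csf1 points are WT libraries.

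Csf3r is best known from neutrophils, so their markers were examined beside it. Of 11 neutrophil markers 7 could be tested and 0 were called by genotype over both peptides, against 0.587% of all genes. Their median log2 difference there was 0.12. The median was 0.94 with control peptide (6 of 7 above 0) and -0.44 with inhibitor (2 of 7 above 0), with 0 called in each. Their summed level was 2.56 to 16.3 CPM in WT and 2.93 to 15.9 CPM in APP/PS1, and Ly6g, a defining marker of mouse neutrophils, had 0 counts in all 10 WT libraries, 1 count in each of 2 APP/PS1 libraries and 0 in the other 5. The 3 libraries with the highest sums were WT replicate 2 with inhibitor at 16.3 CPM, APP/PS1 replicate 2 with control peptide at 15.9 CPM and APP/PS1 replicate 1 with inhibitor at 12.4 CPM. Csf3r was at 16.7, 25.0 and 22.1 CPM in these libraries. In the other 5 APP/PS1 libraries the neutrophil sum was between 2.93 and 4.36 CPM, and Csf3r was between 21.1 and 28.2 CPM.

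The members differed in which genes they followed across the 17 libraries, among 17148 genes with a mean of at least 1 CPM. These correlations of log2 CPM are descriptions, since libraries share depth and composition. Csf1r was most like C1qa (Pearson r = 0.97), C1qc (0.96), both complement genes of microglia, and Vsir (0.95). C1qa and C1qc kept an r of 0.91 and 0.90 after group means were removed. Csf1 was most like Icam1 (r = 0.91) and Vcam1 (0.88), endothelial adhesion molecules that bind leukocytes, and Ier3 (0.85). After group means were removed Icam1 and Vcam1 had an r of 0.96 and 0.93, and without the 2 libraries farthest from the Csf1 median, the WT libraries named above, 0.79 and 0.77 over 15 libraries. Icam1 was at 97.6 CPM in WT replicate 2 with inhibitor and at 7.54 to 37.2 CPM in the other 16 libraries.

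**Figure D5:**
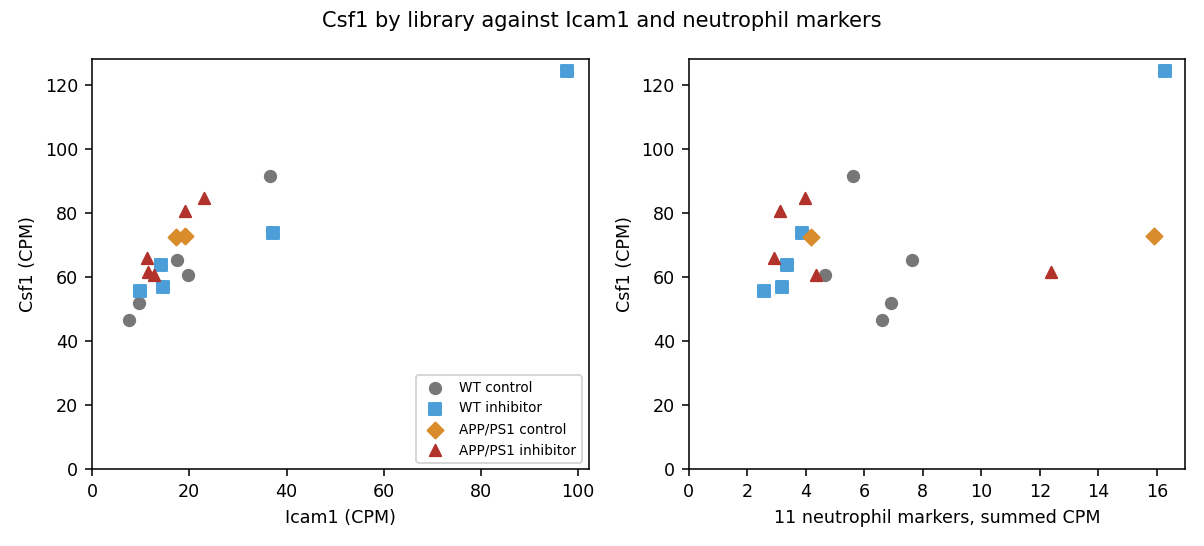
Csf1 in CPM (vertical axes, from 0) against Icam1 in CPM (left) and against the summed CPM of 11 neutrophil markers (right) in 17 libraries. WT replicate 2 with inhibitor is at the upper right of both, with Csf1 at 124 CPM, Icam1 at 97.6 CPM and a neutrophil sum of 16.3 CPM.

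Il34 was most like Capn2 (r = 0.92), which encodes a calpain protease, Extl3 (0.91) and Mturn (0.90). Csf3r was most like the pseudogene Lamr1-ps1 (0.92), Mpeg1 (0.91), a macrophage gene, and A130071D04Rik (0.90). Lamr1-ps1 averaged 0.0447 CPM in WT and 4.94 CPM in APP/PS1, so it passed the level filter only through APP/PS1 and its r restates the split by genotype. The r of Lamr1-ps1 and Mpeg1 with Csf3r was 0.25 and 0.31 after group means were removed, and that of A130071D04Rik was 0.64. Csf2ra was most like Haghl (0.93), Fam193b (0.85) and Gm44724 (0.85), and Csf2rb was most like Spi1 (0.84), the gene of PU.1, Isg20 (0.83) and A130071D04Rik (0.83). Among the members themselves, Csf1r and Csf3r had an r of 0.77, which was 0.23 after group means were removed. Il34 and Csf1r had 0.35, which was 0.85 after group means were removed, so that within groups libraries with more Il34 tended to have more Csf1r. In APP/PS1 with inhibitor, replicates 2 and 5 were highest in both genes and in the endothelial marker sum (3710 and 3480 CPM). The rest of that group had sums of 2045 to 2293 CPM. In WT with inhibitor, replicate 3 had the highest Il34 but a sum of 2785 CPM, against 3133 CPM in replicate 1. The part of library composition in this r was not tested. Csf3r and Csf2rb had an r of 0.70, which was 0.69 after group means were removed. Negative values were found too. In the same 2 forms, Csf2ra had an r of -0.64 and -0.72 with Il34, -0.48 and -0.51 with Csf1r, and -0.42 and -0.41 with Csf1.

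Neighbouring genes were checked for the members where reads could be confused. Pdgfrb, a pericyte gene that lies 15536 bases upstream of Csf1r on the same strand, was at 163 CPM ± 15.1 (SD, n = 10) in WT and 158 CPM ± 35.9 (SD, n = 7) in APP/PS1. Hmgxb3, which overlaps Csf1r on the opposite strand, was at 41.3 CPM ± 2.82 in WT and 42.3 CPM ± 3.67 in APP/PS1. Neither gene was higher in APP/PS1 beyond its spread. Il34 overlaps the antisense genes Gm15894 and Gm15895, both at 0.81 CPM or less in every library. Mtss1l, which lies 428 bases from Il34 on the opposite strand, was at 161 CPM ± 16.1 (SD, n = 10) in WT and at 174 CPM ± 8.96 (SD, n = 7) in APP/PS1. Sf3b3, 4314 bases away on the same strand as Il34, was at 82.0 CPM ± 4.25 in WT and at 85.1 CPM ± 2.91 in APP/PS1. The library kit marks the strand, but whether the counting used it is not given in the sources used here.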

How the data were processed

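Libraries were made with a kit that marks the strand, from RNA freed of ribosomal RNA (per the labels' protocols). The authors deposited raw counts per Ensembl gene. The submitters' processing notes name cutadapt, STAR, HTSeq and DESeq2, and the builds mm10 and GRCh37, with no versions or roles. The table held 20 columns that matched no sample, which were not used here.

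IDs were given symbols, exon lengths and coordinates from GENCODE vM21 (GRCm38): 42250 of 42687 matched a symbol, 437 did not. Promoters came from RefSeq, and those of 3 members were printed. Counts were fitted in edgeR 4.0.16 (R 4.3.3) with TMM scaling, filterByExpr and the quasi-likelihood F test, with Benjamini-Hochberg adjustment over all 18753 genes tested and a threshold of 0.05. All 17 libraries entered each fit, so that the group of 2 shares the spread of the others. A model with a mean per group gave the comparisons within a peptide or genotype and the interaction, and an additive model those over both. Log2 CPM used a prior count of 2. Ratios within libraries were tested by two-sided exact permutation. In a simulation of the comparison of genotype over both peptides (18512 genes), the fit recovered 97% of changes of 1 and 100% of changes of 2 on the log2 scale. Changes were placed only in genes above a level that Csf2rb, at a mean of 4.21 CPM, did not reach. Changes under 1 were not simulated, so recovery of these is not known. Replicate numbers follow sample order and pair nothing. Alternatives were DESeq2 1.42.0, DESeq2 size factors, no filter on low counts, a microglia score as a covariate, a prior count of 0.5, splits within each peptide and leaving out each library. A fit without WT replicate 1 with control peptide and WT replicate 2 with inhibitor was chosen after seeing the data.

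The members and lists were chosen with earlier results of these data known. The genes named are the 6 members, 9 related genes, the signalling genes that passed or had the 3 smallest p-values, and the 3 genes most like each member. A signalling gene that this rule selects is not reported here. The floor of 3 counts covers counting error only, as no molecular identifiers were read and reads may be copies of 1 molecule.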

Additional observations from a re-analysis of the deposited data

Results flagged for a closer look

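In each group of 5 libraries, each member was examined for a library far from the others by Dixon's ratio, the gap to the nearest library over the whole range, with a critical value of 0.71. Of 18 such tests 2 were past it, and chance gives about 1 in 20. Both were high values in WT replicate 2 with inhibitor. Csf1 was at 124 CPM there, with a ratio of 0.737, against 55.8 to 73.8 CPM in the other 4 libraries of the group. Csf2rb was at 6.03 CPM, with a ratio of 0.855, against 3.25 to 3.65 CPM in the others. Csf3r was also highest of the group in this library, at 16.7 CPM with a ratio of 0.592, which is under the critical value. The same library had the highest Icam1 (97.6 CPM), Vcam1 (350 CPM) and neutrophil marker sum (16.3 CPM) of the 17, and the part of these in the high values was not tested.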

How the results depend on the processing

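Under DESeq2 size factors and without the filter on low counts, the counts of called members and every member's direction and side of the threshold were as in the report, as were the 4 ratios with a prior count of 0.5 and with splits within each peptide. With the microglia covariate, 0 members were called over both peptides and 0 with inhibitor, where Csf3r was at 0.85 (edgeR adjusted p = 0.390). The covariate turned the sign of the genotype difference over both peptides to -0.47 for Csf1, -0.033 for Csf1r and 0.021 for Csf2ra, with control peptide to -0.33 for Csf1 and -0.025 for Csf1r, and with inhibitor to -0.036 for Csf1r and 0.043 for Csf2ra. It turned the inhibitor difference over both genotypes to 0.033 for Csf1r and 0.013 for Csf3r, that in APP/PS1 to 0.052 for Csf1, 0.056 for Il34 and 0.026 for Csf1r, and the interaction of Il34 to 0.013. With control peptide, 1 member, Csf3r, was called by DESeq2 and 1, again Csf3r, without both WT libraries high in Csf1 (0.99, edgeR adjusted p = 0.0218). Without both, Csf1 by genotype with inhibitor was 0.18, the inhibitor difference over both genotypes was 0.039 for Csf1r and -0.045 for Csf2rb, and that in WT was -0.015 for Csf2ra. The cause of these shifts was not tested.

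Leaving out 1 library at a time gave 1 to 2 called members over both peptides, 0 to 1 with control peptide, 1 with inhibitor and 0 in the other comparisons. The ratios ranged from 0.16 to 0.30 for Csf1 minus Il34, and against the microglia score from -0.58 to -0.43 for Csf1, -0.034 to 0.036 for Csf1r and 0.39 to 0.49 for Csf3r. With 1 library or both of those WT libraries left out, differences that were not called changed sign within these ranges. By genotype they were Csf1 (-0.028 to 0.25) over both peptides, Il34 (-0.21 to 0.12) with control peptide, and Csf1 (-0.18 to 0.18) and Csf2ra (-0.15 to 0.034) with inhibitor. By inhibitor over both genotypes they were Csf1 (-0.027 to 0.23), Il34 (-0.042 to 0.073), Csf1r (-0.047 to 0.072), Csf3r (-0.10 to 0.054) and Csf2rb (-0.061 to 0.21). In WT they were Csf1 (-0.020 to 0.42), Il34 (-0.040 to 0.10), Csf1r (-0.017 to 0.14), Csf3r (-0.24 to 0.031) and Csf2ra (-0.040 to 0.13). In APP/PS1 they were Csf1 (-0.11 to 0.013), Il34 (-0.21 to 0.15), Csf1r (-0.28 to 0.13) and Csf3r (-0.016 to 0.18), and for the interaction Il34 (-0.26 to 0.096) and Csf1r (-0.33 to 0.075). Over all genes, the 110 called over both peptides were 182 by DESeq2, 2 with the covariate and 70 without APP/PS1 replicate 2 with control peptide. The 10 with control peptide were 45 by DESeq2, 1 with the covariate and 4 to 17 without 1 library, and the 34 with inhibitor were 61, 2 and 15 to 38. No paired analysis was possible because replicate numbers were given in sample order and the labels give no pairing. The group of 2 libraries limits the comparison with control peptide, and the low counts of Csf2rb limit its precision.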

Other observations

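Beyond myeloid cells, marker lists of the vessel wall and its surroundings were compared by genotype over both peptides. Of all genes, 0.587% were called there, so 0 called in a list this short does not show that levels were alike. Of 7 mural markers 0 were called by edgeR's test (median log2 difference 0.07), as were 0 of 6 oligodendrocyte markers (0.12), 0 of 5 fibroblast markers (0.17) and 0 of the 3 erythroid markers that could be tested (0.68). Of 7 astrocyte markers 1 rose, Gfap, the filament protein of reactive astrocytes, by 1.20 on the log2 scale, and the median of that list was 0.19. The 8 endothelial markers, whose cells can make Csf1, had 0 called and a median of -0.03.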
